A study of Glycine max with 102 samples.

Results

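Among 56044 gene IDs measured in leaves of 102 soybean accessions, 75 genes had a higher transcript level in every one of 41 soyNAM parents than in any of 61 milestone cultivars. These 75 genes were chosen by their measured values: each averaged at least 1 FPKM over all libraries, and its lowest soyNAM value lay above its highest milestone value. FPKM counts sequenced fragments per length of transcript and relative to all fragments of the library, so levels of different genes can be set side by side. Because the difference between the collections picked the genes, it is described below and not tested.

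The tested collection is soyNAM, a nested association mapping population in which a common hub parent was crossed to many other lines. Its parents fall into 18 elite lines (improved cultivars and breeding lines), 15 LG lines (breeding lines with exotic material in the pedigree) and 8 PI lines (introduced germplasm). Their division rests on the public family numbers of the population and not on the labels. The library named Parent has no such number. Its reading as the hub parent IA3023, an elite line, rests on public knowledge of the population. The 61 milestone cultivars mark steps in the breeding history of the crop and serve as the comparison. Libraries numbered 1 to 61 were taken as these because the series design gives 61 milestone cultivars. All plants were sampled as leaves at the V2 stage, at 18 days of age, with no treatment named in the labels and with 1 library for each accession. An accession is therefore the replicate, no accession was measured more than once, and the spread given here is the spread between accessions. The labels state neither a growth date nor a sequencing batch, so a batch that followed the collections and the collections themselves cannot be told apart.

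Transcript levels in leaves are known to differ between plant lines for several reasons. Sequence variants in or near a gene change its own level, and genes that share such a variant's neighbourhood can then differ together. Many leaf genes also follow light, temperature and the circadian clock, in which the MYB repressor LHY peaks around dawn. A soybean ID of the type used here names its chromosome in the digits before the letter G, and the number after it follows the order along the chromosome. The deposited table pairs no ID with a gene name, and 0 of its IDs could be matched to the reference table of names, so what the 75 genes encode is not given here.

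The labelled tissue was checked with marker genes. The summed level of 4 genes for the Rubisco small subunit and Rubisco activase, abundant proteins of photosynthesis, ran from 4369 to 39487 FPKM in soyNAM parents, against 9474 to 58626 FPKM in milestone cultivars. In whole leaves, fewer cells of a type and less RNA per cell cannot be told apart. Summed levels of 3 leghemoglobin genes of the nodule reached at most 3.05 FPKM in soyNAM parents, against 2.67 FPKM in milestone cultivars. For 4 seed storage genes the highest sums were 3.79 FPKM in soyNAM parents, against 0.853 FPKM in milestone cultivars, and 1 of the 4 was listed at 0 throughout. Values summed over all genes ran from 459817 to 864712 FPKM per library. A set of 5 soyNAM libraries, namely Parent, NAM10, NAM31, NAM11 and NAM06, is set aside in places below because earlier work on these data had found them to stand apart. LHY1a (Glyma.16G017400) had 2.06 FPKM for Parent and 2.58 FPKM for NAM10, and NAM06, NAM31 and NAM11 held 98.5, 122 and 126 FPKM, against 140.2 to 576 FPKM in the other 36 soyNAM libraries.

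The 75 genes made up 0.249% of the 30101 genes that averaged 1 FPKM or more. In the same comparison 37% of those genes were called higher in soyNAM parents by limma with Benjamini-Hochberg adjustment, and all 75 were, which the choice of the genes fixes. The genes are mostly of low to moderate level in leaves. Their soyNAM medians ran from 1.63 to 842 FPKM with a middle value of 7.87 FPKM, and their milestone medians from 0.143 to 259 FPKM with a middle value of 2.93 FPKM. In soyNAM parents 24 genes had a median under 5 FPKM, 31 between 5 and 20 FPKM, 17 between 20 and 100 FPKM, and 3 above 100 FPKM. None of the 7650 single values was 0. The rule itself fixes this for the soyNAM values. Milestone values went down to 0.0137 FPKM, in Glyma.02G255200, so some were barely above 0.

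The ratio of the soyNAM median to the milestone median ran from 1.51 to 35.6 over the 75 genes, with a middle value of 2.87. It was at least 2 in 55 genes, at least 4 in 22 and at least 10 in 7. Genes with the opposite pattern, lower in every soyNAM parent, numbered 236, and the middle ratio of their milestone to soyNAM medians was 6.04 among those with a soyNAM median above 0. A ratio of at least 4 was thus found in 29.3% of the 75 genes that were higher and in 69.9% of the 236 that were lower, where 21 of the 236 had a soyNAM median of 0 and were counted as above that ratio.

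**Figure D1:**
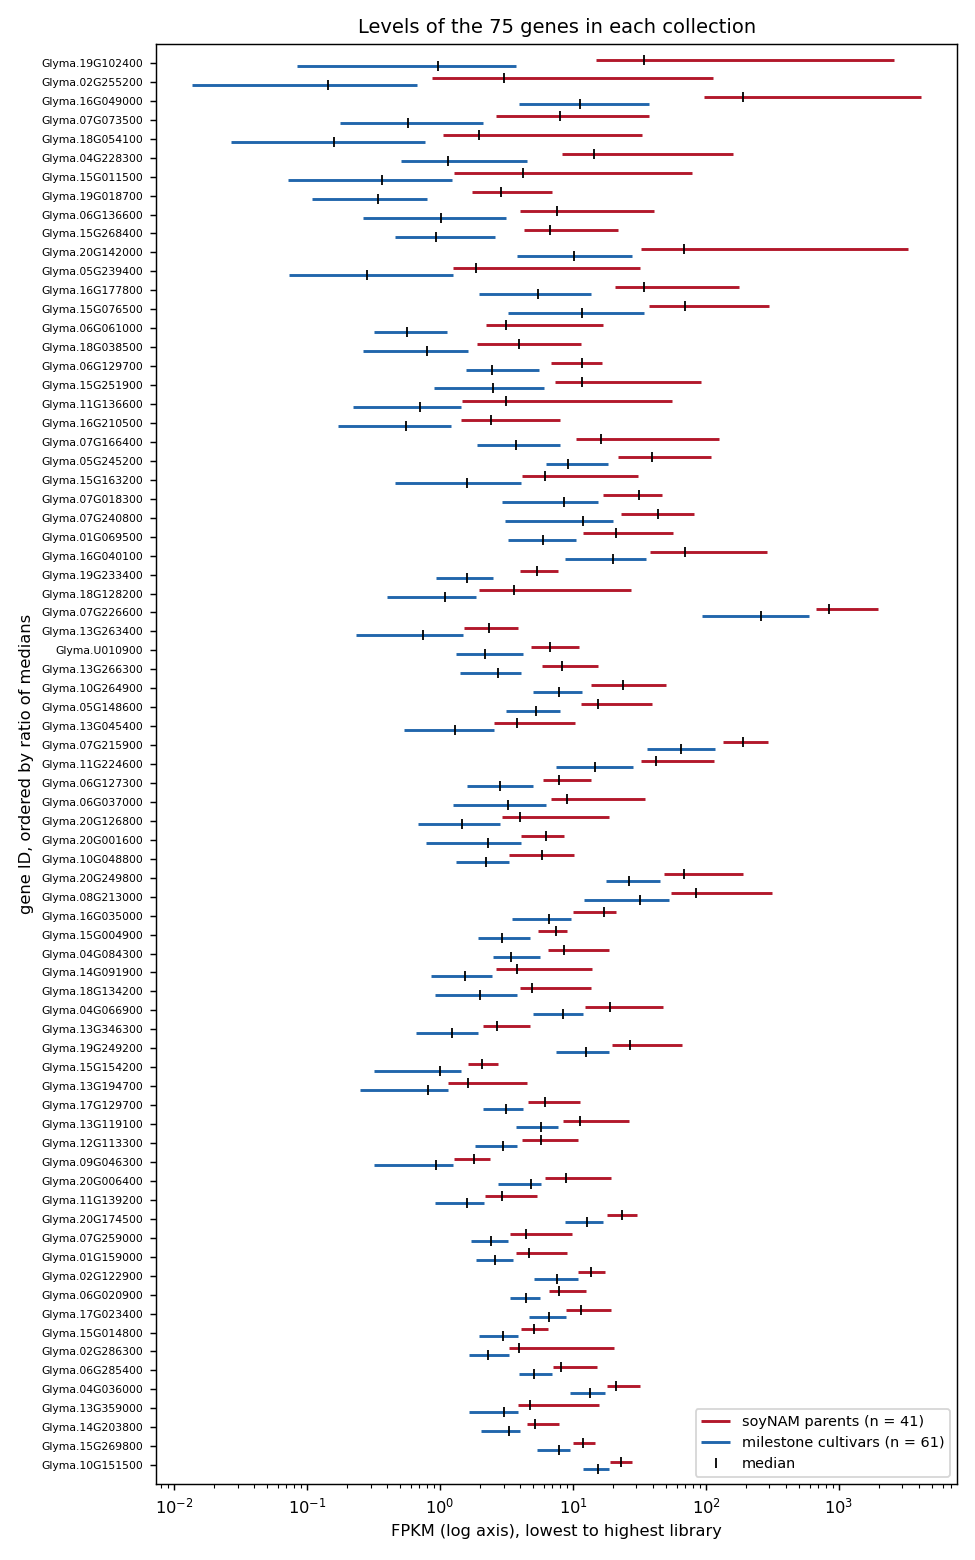
Range of each of the 75 genes from the lowest to the highest library, in FPKM on a log axis, in 41 soyNAM parents and below it in 61 milestone cultivars, with a tick at the median. Genes run from the largest ratio of medians, 35.6, at the top to the smallest, 1.51, at the bottom, and the 2 ranges of a gene never overlap because the genes were selected for that.

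The widest separation was in Glyma.19G102400. Its lowest, median and highest values were 14.9, 34.5 and 2589 FPKM in soyNAM parents, against 0.0836, 0.968 and 3.75 FPKM in milestone cultivars. Even the lowest soyNAM library, NAM22, was 3.96 times the highest milestone library, number 58. Glyma.02G255200 had the next largest ratio of medians at 21.3, with 0.867, 3.05 and 112 FPKM in soyNAM parents against 0.0137, 0.143 and 0.671 FPKM in milestone cultivars. In most milestone cultivars this gene was barely above 0, whereas most soyNAM parents held a few FPKM.

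Glyma.16G049000 was both abundant and far apart, with a ratio of medians of 16.8. Its values were 97.3, 190.3 and 4136 FPKM in soyNAM parents, against 3.91, 11.4 and 37.3 FPKM in milestone cultivars. The other 4 genes with a ratio of at least 10 had lower levels. Glyma.07G073500 stood at 2.64, 8.02 and 37.3 FPKM in soyNAM parents, against 0.176, 0.576 and 2.11 FPKM in milestone cultivars. For Glyma.04G228300 the values were 8.20, 14.3 and 160.4 FPKM in soyNAM parents, against 0.508, 1.16 and 4.48 FPKM in milestone cultivars. The remaining pair, Glyma.18G054100 and Glyma.15G011500, had ratios of medians of 12.3 and 11.4 at soyNAM medians of 1.97 and 4.17 FPKM. In the plot of single libraries the milestone values of these genes spread over a wide range of low levels, while most soyNAM values lay closer together with a few libraries far above.

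The next 5 by ratio of medians were Glyma.19G018700 at 8.41, Glyma.06G136600 at 7.42, Glyma.15G268400 at 7.17, Glyma.20G142000 at 6.74 and Glyma.05G239400 at 6.70. Glyma.19G018700 had 1.75, 2.90 and 6.91 FPKM in soyNAM parents, against 0.108, 0.344 and 0.805 FPKM in milestone cultivars, without any very high library. Glyma.15G268400 had 4.30, 6.69 and 21.9 FPKM in soyNAM parents, against 0.461, 0.932 and 2.58 FPKM in milestone cultivars. The other 3 had soyNAM medians of 7.60, 68.9 and 1.88 FPKM, against milestone medians of 1.02, 10.2 and 0.280 FPKM.

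**Figure D2:**
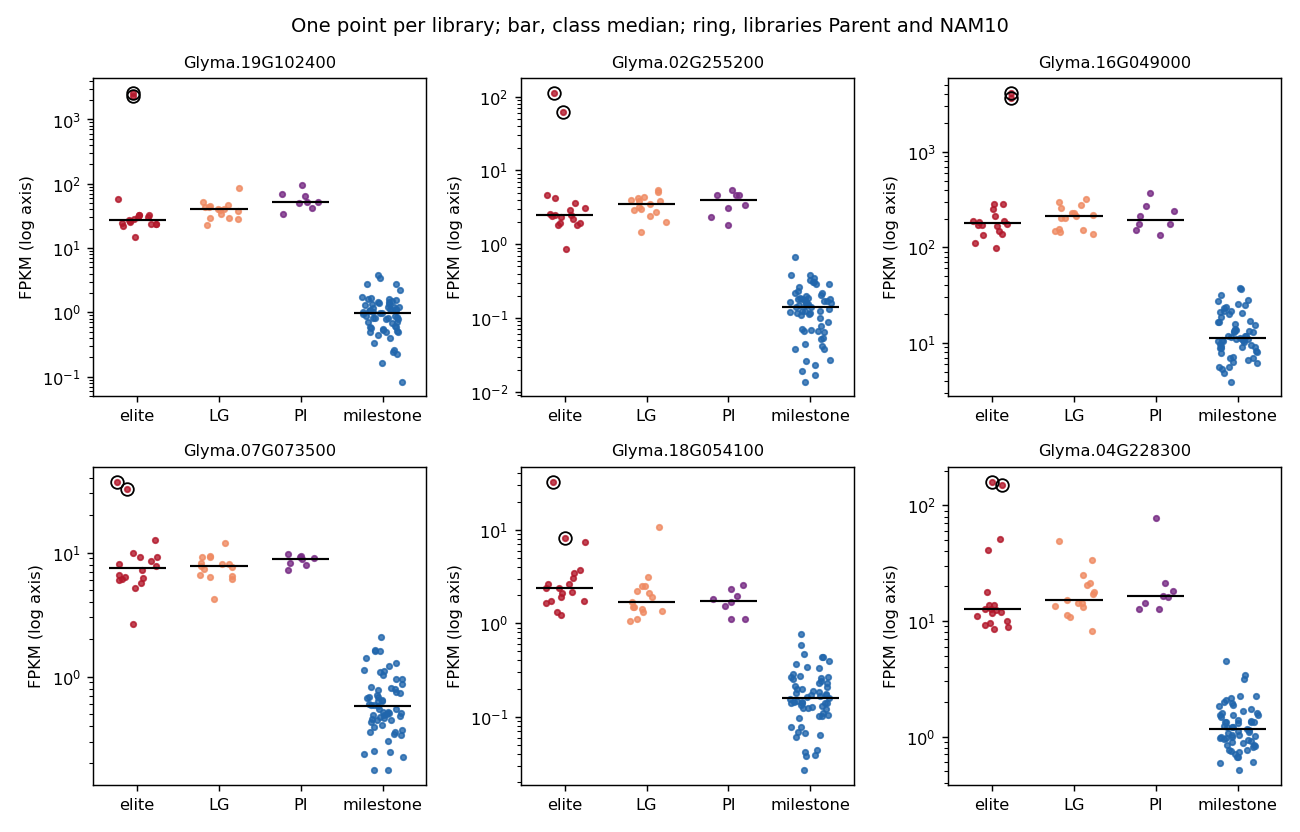
FPKM on a log axis in each library for the 6 genes with the largest ratio of medians, with elite, LG and PI lines of soyNAM to the left of the milestone cultivars and a bar at each class median. Rings mark the libraries Parent and NAM10 among the elite lines, at 2293 and 2589 FPKM for Glyma.19G102400. They hold the 2 highest values of each gene but Glyma.18G054100, where NAM31 lies above Parent.

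The most abundant of the 75 genes was Glyma.07G226600. It had 667, 842 and 1970.3 FPKM as lowest, median and highest values in soyNAM parents, against 93.3, 259 and 599 FPKM in milestone cultivars. Glyma.07G215900 had 133, 189 and 294 FPKM in soyNAM parents, against 35.8, 65.0 and 117 FPKM in milestone cultivars. These 2 genes lie on the same chromosome with 106 other IDs between them. In contrast to the genes with the largest ratios, the highest soyNAM library of Glyma.07G215900 was only 1.56 times its soyNAM median.

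Among the next in abundance, Glyma.08G213000, Glyma.15G076500, Glyma.16G040100 and Glyma.20G249800 had soyNAM medians of 83.4, 69.9, 69.6 and 68.7 FPKM, against milestone medians of 31.98, 11.7, 19.95 and 26.2 FPKM. Glyma.07G240800, Glyma.11G224600 and Glyma.05G245200 followed at 43.4, 42.2 and 39.2 FPKM in soyNAM parents, against 11.8, 14.7 and 9.20 FPKM in milestone cultivars. The ratio of medians in these 7 genes lay between 2.61 and 5.97.

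At the other end stood genes that differed little but varied little. Glyma.10G151500 had 18.99, 23.1 and 27.97 FPKM in soyNAM parents, against 11.9, 15.3 and 18.7 FPKM in milestone cultivars, the smallest ratio of medians of the 75 at 1.51. Its coefficient of variation (CV, the SD over the mean) was 0.0852 in both collections. Glyma.15G269800 was as even, at 9.97, 11.96 and 14.5 FPKM in soyNAM parents, against 5.37, 7.83 and 9.54 FPKM in milestone cultivars, with CVs of 0.0804 in soyNAM parents and 0.102 in milestone cultivars. Glyma.02G122900, Glyma.15G014800 and Glyma.20G174500 were the other genes with the lowest soyNAM CVs, between 0.104 and 0.117, and their ratios of medians were 1.80, 1.71 and 1.83.

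Most of the 75 genes cleared the requirement narrowly. The ratio of the lowest soyNAM to the highest milestone value had a middle value of 1.09, was under 1.1 in 41 genes and reached 1.5 in 8. The genes nearest the limit were Glyma.17G023400, at 8.789 FPKM in NAM31 against 8.787 FPKM in milestone library 56, then Glyma.13G045400, Glyma.10G048800, Glyma.09G046300 and Glyma.02G286300, with ratios of 1.0009, 1.002, 1.004 and 1.006. Just outside lay Glyma.12G207700, at 12.96 FPKM in its lowest soyNAM library against 13.1 FPKM in the highest milestone library. Glyma.14G060500, Glyma.20G026800, Glyma.13G340200 and Glyma.06G292500 came next outside, with ratios of 0.987, 0.987, 0.987 and 0.986. A single soyNAM library kept 58 further genes out, and in 18 of these it was NAM06, while a single milestone library kept out 54. On the requirement of 1 FPKM, Glyma.13G194700, Glyma.09G046300 and Glyma.13G263400 were nearest inside with means of 1.202, 1.26 and 1.41 FPKM. Only 3 genes kept the rest of the rule below it, Glyma.03G191100, Glyma.10G180500 and Glyma.12G118600, with means of 0.826, 0.548 and 0.451 FPKM.

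No single accession fixed the limits. The lowest soyNAM value was set by 23 different libraries, most often by NAM06 with 12 genes, then NAM11 and NAM04 with 7 each and NAM31 and NAM37 with 6 each. The highest milestone value was set by 30 different libraries, with number 58 doing so for 11 genes and number 54 for 6. Relative to each gene's soyNAM median, the median over the 75 genes was 0.894 to 1.12 in 39 soyNAM libraries, against 0.285 to 0.451 in the milestone libraries. Milestone library 61 was the nearest to soyNAM and milestone library 1 the farthest.

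The 2 soyNAM libraries outside that range were Parent and NAM10, in which the 75 genes were higher still. The median over the 75 genes was 1.81 times the soyNAM median in Parent and 2.07 times in NAM10. Over all 30101 genes that median was 0.9998 in Parent and 0.999 in NAM10. Parent held the highest soyNAM value of 29 genes and NAM10 that of 25. Together they held the maximum in 72% of the 75 genes, whereas they did so in 18.9% of the 30101 genes and in 24.2% of those called higher in soyNAM parents by limma. The rule itself leaves out genes with a low value in either library, so this share is a description. Both libraries were above all of the other 39 soyNAM libraries in 39 of the 75 genes, against 8.57% of all genes. Parent was nonetheless below the soyNAM median in 8 of the 75 genes, and NAM10 in 12.

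In 16 genes the highest soyNAM value was at least 5 times the soyNAM median, a mark chosen after the values were seen. These were 21.3% of the 75 genes, against 12.6% of all 30101 genes. That highest value was in Parent in 10 of them and in NAM10 in the other 6. Glyma.19G102400 reached 2293 FPKM in Parent and 2589 FPKM in NAM10, against 14.9 to 96.4 FPKM in the other 39 soyNAM libraries. Glyma.16G049000 was at 3698 and 4136 FPKM there, against 97.3 to 366 FPKM in the other 39. Glyma.20G142000 was at 3321 and 2599.99 FPKM, against 32.6 to 462 FPKM. For these 3 genes Parent and NAM10 stood apart from every other accession of either collection.

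Lower in level but with the same outline were Glyma.02G255200 at 62.2 and 112 FPKM in Parent and NAM10, Glyma.04G228300 at 160.4 and 149, Glyma.07G166400 at 126 and 125, Glyma.16G177800 at 150.3 and 178, Glyma.15G251900 at 92.2 and 84.9, and Glyma.15G011500 at 78.3 and 75.3 FPKM. Their highest values in the other 39 soyNAM libraries were 5.51, 77.4, 26.7, 66.5, 43.6 and 29.1 FPKM. The other 7 genes were Glyma.02G286300, Glyma.05G239400, Glyma.06G061000, Glyma.06G136600, Glyma.11G136600, Glyma.18G054100 and Glyma.18G128200, with maxima between 16.7 and 55.9 FPKM. In 15 of the 16 genes both libraries lay above the other 39, and Glyma.18G054100 was the exception, at 8.19 FPKM in Parent against 10.7 FPKM in NAM31. The PI line NAM48 was the highest of the other 39 in 5 of the 16 genes and above the soyNAM median in 14. For Glyma.06G136600 it held 36.2 FPKM, close to the 36.9 FPKM of NAM10.

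Markers of photosynthesis, taken as a sum, and LHY transcripts were low in the same libraries, while the clock-related genes J and E2 were high there. The summed level of the 4 Rubisco and activase genes was 4369 FPKM in Parent and 5572 FPKM in NAM10, against 12822 to 39487 FPKM in the 36 soyNAM libraries left without the 5 that stand apart. Their summed FPKM over all genes was 459817 and 519785, against a soyNAM median of 713642. All 4 LHY genes looked up were at 2.58 FPKM or lower in both libraries. J (Glyma.04G050200), the homologue of the evening gene ELF3, was at 47.5 FPKM in Parent and 53.6 FPKM in NAM10, where its median over soyNAM was 5.89 FPKM. E2 (Glyma.10G221500), the homologue of the clock output gene GIGANTEA, was at 94.5 and 94.7 FPKM, against a soyNAM median of 37.6 FPKM. PRR3b (Glyma.12G073900), a pseudo-response regulator, was at 34.1 and 41.2 FPKM, against a soyNAM median of 52.1 FPKM. Which share of the high values of the 75 genes goes with these differences was not tested. With the 5 libraries left out, the ratio of the soyNAM to the milestone median in the 75 genes was 1.51 to 35.3. Its middle value was 2.82, close to the value with all libraries. A median can move only a little when 5 of 41 libraries are dropped, so this closeness is a description. The rule held for 161 genes without the 5 libraries, with 74 of the 75 among them.

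**Figure D3:**
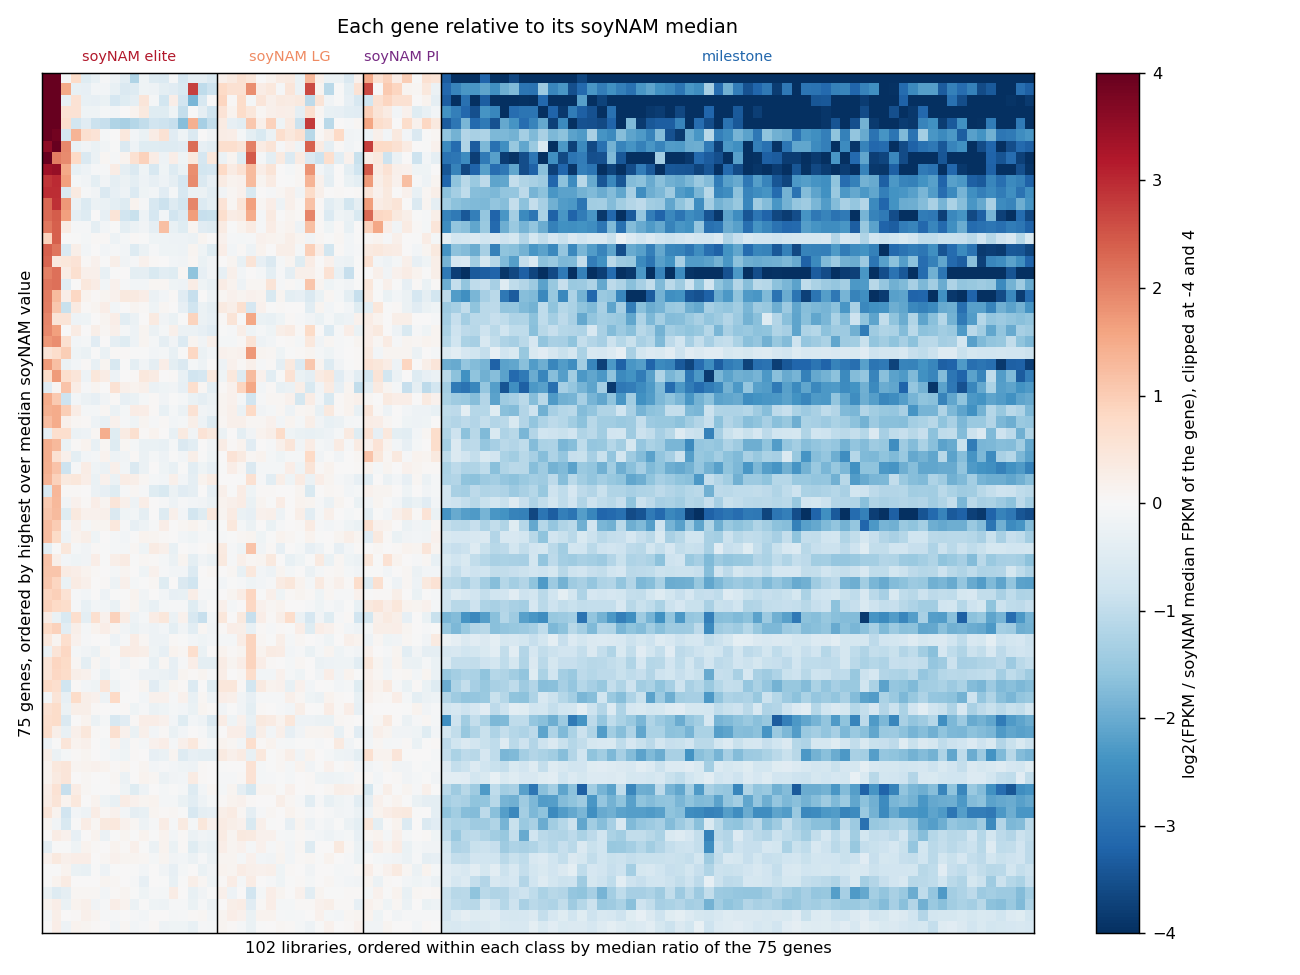
Level of each of the 75 genes, in rows, in each of the 102 libraries, in columns, as log2 of the ratio to the gene's soyNAM median. Libraries stand in classes, with the 18 elite, 15 LG and 8 PI lines left of the 61 milestone cultivars, and the 2 leftmost elite columns are NAM10 and Parent, where the median ratio was 2.07 and 1.81.

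Variation within the collections was next compared. The requirement on the lowest soyNAM and highest milestone value limits the spread of each gene, so these values are a description. The median CV of the 75 genes was 0.305 in soyNAM parents and 0.264 in milestone cultivars, beside 0.282 and 0.246 over all 30101 genes. The CV was higher in soyNAM parents in 54 of the 75 genes, or 72%, against 60.7% of all genes. Without the 5 libraries that stand apart the median soyNAM CV of the 75 genes was 0.162 and only 12 genes, or 16%, varied more in soyNAM parents than in milestone cultivars, against 0.203 and 31.1% over all genes. The 5 most variable genes over all 41 soyNAM libraries were Glyma.19G102400, Glyma.02G255200, Glyma.20G142000, Glyma.16G049000 and Glyma.15G011500, with CVs of 3.35, 2.64, 2.58, 2.14 and 1.93. In the 36 libraries Glyma.19G102400 had a CV of 0.447, against 0.669 in milestone cultivars.

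A few genes still varied widely among the 36 soyNAM libraries. Glyma.15G011500 had a CV of 1.03, Glyma.20G142000 one of 0.955, Glyma.05G239400 one of 0.912, Glyma.04G228300 one of 0.747 and Glyma.06G136600 one of 0.730. Their milestone CVs were 0.639, 0.433, 0.627, 0.525 and 0.551. All 5 are among the 16 genes with very high values in Parent or NAM10, so their spread in soyNAM was not limited to those accessions. The highest of the 36 values was that of NAM48 in Glyma.20G142000, Glyma.05G239400, Glyma.04G228300 and Glyma.06G136600, at 429, 12.8, 77.4 and 36.2 FPKM. In Glyma.15G011500 it was that of NAM29, at 29.1 FPKM. How far these CVs rest on a single library was not tested.

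**Figure D4:**
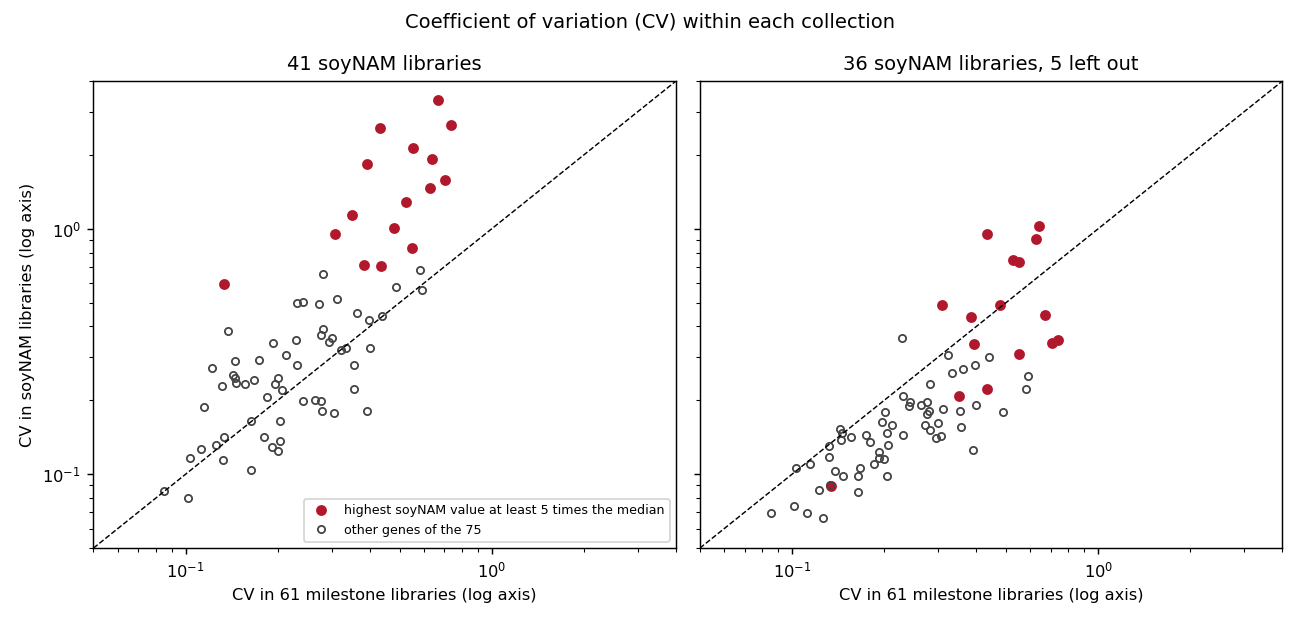
CV of each of the 75 genes in soyNAM libraries, on the vertical axis, against its CV in 61 milestone libraries, both on log axes, with a dashed line of equal CV. With all 41 soyNAM libraries, on the left, 54 genes lie above the line, and with 36, on the right, 12 genes do, and filled points are the 16 genes whose highest soyNAM value is at least 5 times the median.

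The 75 genes did not vary as 1 block. Over the 41 soyNAM libraries the median Spearman correlation of 2775 pairs of the genes was 0.17, and 9.69% of pairs reached 0.5, against 2.83% of pairs of one of the 75 with another gene. Over the 61 milestone libraries the median was 0.13, and 5.33% of pairs reached 0.5, against 0.869%. All pairs share the same libraries and their FPKM scaling. Negative correlations made up 25.8% of pairs over soyNAM parents, against 27.5% over milestone cultivars.

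LHY1a was used to follow the clock within each collection. The correlation with LHY1a was -0.5 or lower in 15 of the 75 genes over the 41 soyNAM libraries, or 20%, against 12.4% of the other genes. Over the 61 milestone libraries it was so in 16 genes, or 21.3%, against 3.89% of the other genes. Both lists held 8 of the same genes, which is 53.3% of the soyNAM list and 50% of the milestone list. Without the 5 libraries that stand apart, 13 genes, or 17.3%, were on the soyNAM list, against 9.90% of the other genes, and 10 of the 13 were also on the milestone list. A correlation of 0.5 or higher with LHY1a was found in 0 of the 75 genes over the 41 soyNAM libraries and in 0 over the milestone libraries. Over the 36 it was found in 2, Glyma.14G203800 at 0.64 and Glyma.20G174500 at 0.55. The share of the other genes at 0.5 or higher was not taken, so these counts have no background beside them.

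The 8 shared genes were Glyma.05G239400, Glyma.06G061000, Glyma.14G091900, Glyma.15G011500, Glyma.15G251900, Glyma.15G268400, Glyma.16G049000 and Glyma.19G102400. For Glyma.15G011500 the correlation with LHY1a was -0.85 in soyNAM parents, -0.78 without the 5 libraries, and -0.68 in milestone cultivars. For Glyma.15G251900 it was -0.70, -0.56 and -0.71. Of the 8 genes, 6 are among the 16 with very high values in Parent or NAM10. LHY1a had a median of 374 FPKM in all 41 soyNAM libraries, against 395 FPKM in milestone cultivars, and LHY2b (Glyma.03G261800) one of 215 FPKM in soyNAM parents, against 333 FPKM in milestone cultivars. Whether the level of the clock genes bears on the difference in the 75 genes was not tested.

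Of the 12 flowering and clock genes looked up, 11 averaged 1 FPKM or more, E1 did not, and 0 met the rule, where 0.249% of all such genes did. The florigen gene FT2a (Glyma.16G150700) had 0.0332, 5.98 and 11.9 FPKM in soyNAM parents, against 0, 0.157 and 4.70 FPKM in milestone cultivars. Its medians lay far apart, but its lowest soyNAM value, in Parent, was within the milestone range. FT5a (Glyma.16G044100), another florigen gene, had medians of 2.02 FPKM in soyNAM parents, against 0.112 FPKM in milestone cultivars, again with overlapping ranges. J had 2.71, 5.89 and 53.6 FPKM in soyNAM parents, against 1.84, 2.87 and 4.52 FPKM in milestone cultivars, and its ranges overlapped as well.

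PI lines were then set against elite lines within soyNAM. The choice of the genes did not use this division, but it used the same soyNAM values and limits their spread. The share called among the 75 genes and that over all genes thus come from genes chosen differently. The same holds for LG lines below. None of the 75 genes was called by limma with Benjamini-Hochberg adjustment, where 1.9% of all 30101 genes were. At an unadjusted p under 0.05 there were 9 of the 75 and 5095 of all genes. The log2 fold changes of the 75 genes ran from -0.58 to 0.57, with 34 above 0 and 41 below. Their median was -0.04, beside 0.00 over all genes. Leaving out NAM06 or NAM09 gave 1 call, Glyma.20G174500, and leaving out NAM54 gave 1 call, Glyma.15G014800.

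Glyma.20G174500 had the smallest p of the 75 in PI against elite lines. Its values were 18.1, 21.1 and 23.7 FPKM in PI lines, against 19.7, 24.8 and 30.1 FPKM in elite lines, as lowest, median and highest. The ranges overlapped, and the log2 fold change of -0.21 (SE 0.07) had a limma adjusted p of 0.0779. Glyma.15G014800 had 4.34, 5.49 and 6.53 FPKM in PI lines, against 4.03, 4.87 and 5.63 FPKM in elite lines, with a log2 fold change of 0.16 (SE 0.06, limma adjusted p = 0.107). The estimate for Glyma.19G102400 was 0.26 with a 95% interval from -0.95 to 1.47, and the 2 libraries with its very high values are both elite lines.

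This outcome turned on the libraries that stand apart, of which 4 are elite lines and 1 is an LG line. Without them 21 of the 75 genes, or 28%, were called between PI and elite lines in limma, where 18.9% of all genes were. Of the 21 genes 18 were higher in PI lines and 3 lower, while over all genes 2746 of 5683 calls were higher in PI lines. Glyma.15G011500 had the smallest adjusted p, with a log2 fold change of 1.27 in PI lines (limma adjusted p = 6.4e-04). Its median was 6.52 FPKM in PI lines and 2.26 FPKM over all 18 elite lines. Glyma.19G102400 followed at 0.99 (limma adjusted p = 7.4e-04), with medians of 52.8 FPKM in PI lines and 27.6 FPKM in elite lines, and Glyma.12G113300 at 0.29 (limma adjusted p = 8.2e-04). Glyma.20G174500, Glyma.20G001600 and Glyma.05G148600 were the 3 genes lower in PI lines, by -0.19, -0.30 and -0.24. Their correlations with LHY1a over the 36 libraries were 0.55, 0.43 and 0.41. All 13 genes with a correlation of -0.5 or lower over those libraries were among the 18 higher in PI lines. How many of the other genes with such a correlation were called higher was not counted, so this match has no background beside it. The part of LHY1a level in these class calls was not tested. Without Parent and NAM10 alone 7 genes were called, all higher in PI lines, where 4.05% of all genes were called and 690 of these 1220 were higher.

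**Figure D5:**
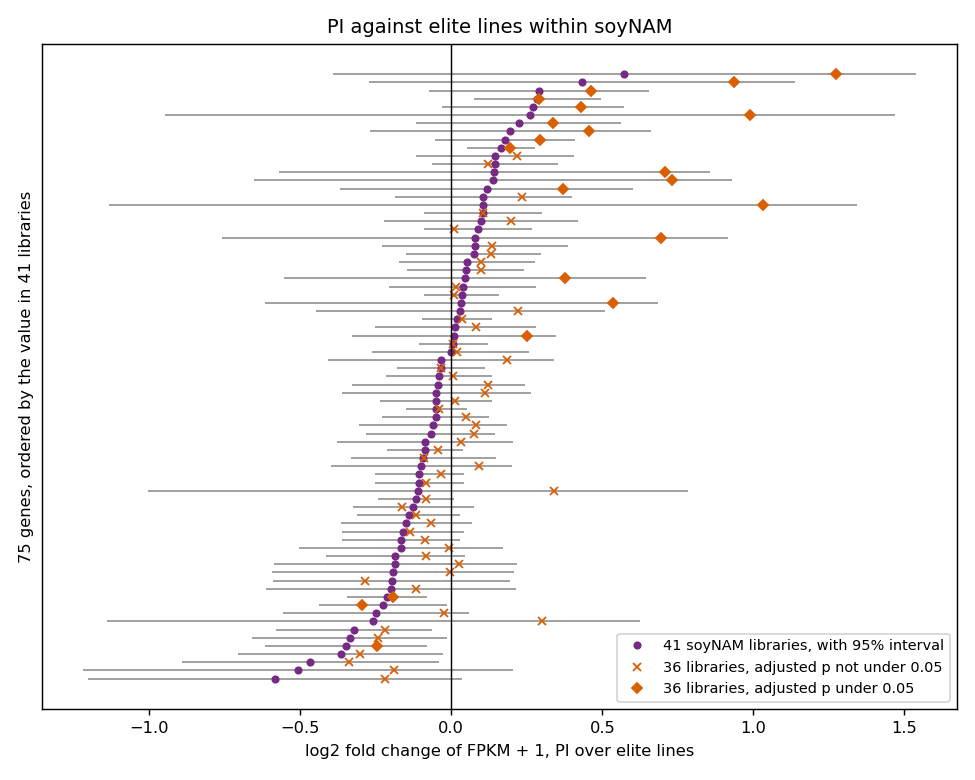
Log2 fold change of FPKM + 1 in PI over elite lines for each of the 75 genes, with all 41 soyNAM libraries (circles, with the 95% interval) and with the 36 left after 5 were set aside (diamonds where the adjusted p was under 0.05, crosses otherwise). No circle passed the threshold, and of the 21 diamonds 18 lie above 0.

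LG lines against elite lines gave no call. None of the 75 genes and 0% of all 30101 genes passed in limma, while 2 of the 75 and 1966 of all genes had an unadjusted p under 0.05. Log2 fold changes of the 75 genes ran from -0.43 to 0.23, with 27 above 0 and 48 below. Glyma.15G014800 had the smallest p of the 75, at 4.50, 5.18 and 6.16 FPKM in LG lines against 4.03, 4.87 and 5.63 FPKM in elite lines, a log2 fold change of 0.12 with a 95% interval from 0.03 to 0.22 and a limma adjusted p of 0.612. Without the 5 libraries Glyma.15G011500 alone of the 75 was called, higher by 0.88 in LG lines (limma adjusted p = 0.0268), where 0.741% of all genes were.

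Along the chromosomes no pair of the 75 genes lay side by side. A cluster was defined as genes with at most 10 other IDs between neighbours, and by that measure 0 of the 75 genes lay in a cluster. Of the 236 genes lower in every soyNAM parent, 32, or 13.6%, did so, but close neighbours come more often in a longer list. The share for 75 genes drawn at large was not tested. The closest neighbours among the 75 were Glyma.15G268400 and Glyma.15G269800 with 13 IDs between them, then Glyma.06G127300 and Glyma.06G129700 with 23, and Glyma.11G136600 and Glyma.11G139200 with 25. The middle number of IDs between neighbours on a chromosome was 326. Members of the closest pair differed in their pattern, since Glyma.15G268400 had a ratio of medians of 7.17 and Glyma.15G269800 one of 1.53.

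Of the 20 chromosomes 19 held at least 1 of the 75 genes. Chromosome 15 held 9, which is 6.22 for each 1000 genes tested there, against 2.49 for each 1000 over the whole table. Chromosomes 20, 16 and 7 came next at 4.72, 4.69 and 4.56 for each 1000. These rates rest on few genes, and whether they differ between chromosomes was not tested. Chromosomes 6, 7 and 13 held 7 each and chromosome 20 held 6, while chromosome 3 held 0 of its 1359 tested genes and chromosomes 8, 9 and 12 held 1 each. Another gene, Glyma.U010900, is on a scaffold not placed on a chromosome. Genes next to the 75 were called higher or lower about as often as genes at large. Of the 150 tested genes that flank one of the 75 by ID, 58, or 38.7%, were called higher in soyNAM parents and 56, or 37.3%, lower, against 37% and 37.8% of all genes. Their median log2 fold change was 0.01, beside 0.00 over all genes.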

How the data were processed

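Leaf RNA of 102 accessions was measured, and the authors deposited 1 table of FPKM values. Per the submitters' processing notes, the tools were Trimmomatic 0.32, STAR 2.4.1c and Cufflinks 2.2.1. The IDs carry a Wm82.a2.v1 suffix; filters and the use of strand are not given in the sources used here, although the labels' protocols name a stranded kit, so overlapping, antisense or near-identical genes can share reads. Depth is unknown, and no counting interval is given. Columns were assigned to groups by their names, and 0 columns were left unused.

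Values were analysed as log2(FPKM + 1), which understates changes of low genes, with limma 3.58.1 in R 4.3.3 (package data.table, version 1.17.8), with a mean trend, 2-sided, and Benjamini-Hochberg adjustment over all 30101 genes that averaged 1 FPKM or more, at a threshold of 0.05. PI and LG lines were compared with elite lines in a fit of the 41 soyNAM libraries, because the genes are by choice low in the others. On simulated data with 200 changed genes, PI against elite lines recovered 61% at 1.5-fold and 78% at 2-fold with 4 false calls. LG against elite lines recovered 70% and 91% with 12, each over 30101 genes. The noise was normal and independent for each gene, with its mean and SD over the 41 libraries. No simulated library stood apart over many genes, so these rates need not hold for the measured data.

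The 75 genes, the lists and the 5 libraries that stand apart were chosen with earlier results of these data known. Genes named are those with the 12 largest ratios of medians or soyNAM medians, those nearest each limit, those with extreme CV and those called. Others were named after their values were seen. Alternatives were another pseudocount, filter, scaling, set of samples, and leaving out libraries.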

Additional observations from a re-analysis of the deposited data

Results flagged for a closer look

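Among the 8 PI lines, 12 values of the 75 genes stood far from the other 7 accessions, with a gap to the nearest value above Dixon's critical share of the range, 0.526. Chance alone picks out about 1 in 20 such groups where values follow a normal distribution, which FPKM values need not do. The share of all genes with such a value was not taken, so the 12 are a description. NAM48 was the highest PI line for Glyma.04G228300 at 77.4 FPKM, Glyma.05G239400 at 12.8, Glyma.06G136600 at 36.2, Glyma.07G226600 at 1304, Glyma.11G224600 at 93.1, Glyma.15G011500 at 12.5, Glyma.18G128200 at 11.6, and Glyma.18G134200 at 6.86 FPKM. It was also highest for Glyma.20G142000 at 429 FPKM, against 58.5 to 143 FPKM in the other PI lines. The same library was the lowest for Glyma.07G018300, at 19.1 FPKM against 30.6 to 37.1 FPKM. LHY1a stood at 140.2 FPKM in NAM48, the lowest of the 36 soyNAM libraries not set aside, and the leaf marker sum there was 12822 FPKM, also the lowest of the 36; their part in these values was not tested. The other 2 values were Glyma.06G285400 in NAM50, at 10.5 FPKM against 7.02 to 8.62 FPKM, and Glyma.07G259000 in NAM42, at 6.15 FPKM against 4.53 to 4.85 FPKM.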

How the results depend on the processing

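The number of genes that meet the rule was 90 under median-of-ratios scaling, with all 75 among them, 88 after quantile normalization, with 62 of the 75, and 78 without the filter. It was 39 with a mean of at least 5 FPKM, 161 without the 5 libraries that stand apart, and 75 to 93 with each library left out in turn, the most without NAM06. With up to 20 IDs between neighbours, 2 genes formed a cluster, and 0 with up to 5. Between PI and elite lines, 1 of the 75 was called after quantile normalization (Glyma.15G014800) and 1 in a fit that included milestone cultivars (Glyma.20G174500), where 1037 of all genes were; 336 of all genes were called with a mean of at least 5 FPKM. Without the 5 libraries the calls were 21 of the 75 and 5683 of all genes. Chosen after seeing the data, leaving out Parent and NAM10 gave 7 and 1220, and leaving out the 5 libraries and NAM48 gave 17 and 4800. Leaving out each library in turn gave 0 to 1 of the 75 (1 without NAM06, NAM09 or NAM54) and 273 to 768 of all genes, with 356 without NAM41, 273 without NAM42 and 296 without NAM46 or NAM50. Between LG and elite lines, calls over all genes were 2 with a mean of at least 5 FPKM, 1 under median-of-ratios scaling, 8 with milestone cultivars included, 223 without the 5 libraries (1 of the 75), 8 without Parent and NAM10, 364 without the 5 and NAM48 (2 of the 75), and 0 to 7 with each library left out. The causes of these changes were not tested beyond the fewer genes or libraries that the settings themselves bring. Depth is unknown, so what it limits cannot be given. No paired analysis was possible because each accession has 1 library and the groups hold different accessions.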
